A study of Mus musculus with 6 samples.

Results

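The genes described here are those whose symbol begins with Zfp, Zbtb, Zscan or Zkscan followed by a digit, the names given in mouse to most genes of proteins with C2H2 zinc fingers. There were 62 such genes among the 3257 genes of the authors' deposited table. The table itself had been selected by its authors on the comparison of knockout with wild-type libraries, since its genes all pass a fold limit of 1.5 together with an adjusted p-value limit of 0.05. The direction and size of each member's change are therefore a description of a selected table, and they are not evidence that a member differed. Of the 62 members, 52 were higher and 10 were lower in the knockout.

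A C2H2 zinc finger is a short protein fold held by a zinc ion between a pair of cysteines and a pair of histidines, and arrays of such fingers read DNA sequence. Many of these proteins carry a KRAB domain at the amino terminus, which recruits the co-repressor Trim28 and with it histone-modifying enzymes that silence chromatin, often at transposable elements. Others carry a BTB domain (the Zbtb genes), through which they pair and bind co-repressors, or a SCAN domain (the Zscan and Zkscan genes), through which they form dimers. KRAB zinc finger genes lie in clusters of related copies on a few mouse chromosomes, and the function of most is not known.

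RNA was sequenced from primary Sertoli cells of C57BL/6 mice, the somatic cells of the testis tubule that nurse germ cells, after enrichment by differential plating. The 3 wild-type libraries were made from cells that had received an empty plasmid. The 3 UXT knockout libraries were made from cells of UXT knockout animals that had received a virus with Cre recombinase, an enzyme that cuts out DNA between loxP sites. Both groups were infected on 2 occasions. UXT, a relative of the prefoldins also known as ART-27, acts with the androgen receptor, and the comparison asks which transcripts differ when it is lost. Cre was given to the knockout cells only, so the loss of UXT and the presence of the Cre construct cannot be told apart. Uxt itself has no row among the genes analysed here, which all passed the fold and p-value limits of the deposited table. A change of its RNA is therefore not shown here, and the targeted gene was not checked. The labels do not name separate animals or cultures for the libraries of a group, and p-values then reflect only how far these libraries spread, which may be technical. In a bulk sample, fewer cells of a type and less RNA per cell cannot be told apart.

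The symbols were first set against the proteins they encode. In the GENCODE M21 annotation of the mouse genome (GRCm38, also called mm10), 61 of the 62 members encode a protein, and 56 of these hold at least 2 stretches of the C2H2 pattern. The number of such stretches ranged from 0 to 36, with a median of 10, and Zfp142 had the most. At least 1 of 2 KRAB patterns was found in 30 of the 61 proteins (49.2%), beside 225 of all 465 annotated protein-coding genes that carry these symbols (48.4%). For 6 symbols there was no protein with 2 or more such stretches. That count does not show whether a protein binds DNA or acts as a transcription factor. Zbtb11os1 is an RNA on the strand opposite Zbtb11. Zfp185, a LIM protein of the actin cytoskeleton, and Zfp365 held no C2H2 pattern, and Zfp395, Zfp593 and Zfp804a held 1 each. Zfp622 held 3 fingers, but it is known, like Zfp593, as a factor in the making of the large ribosomal subunit. Without the 6 symbols of fewer than 2 fingers, 48 members were higher and 8 were lower.

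The 61 protein-coding members were 13.1% of the 465 annotated genes with these symbols, beside 13.9% of all 21924 protein-coding genes that were in the table. The Zbtb genes were represented by 7 of 41 and the Zfp genes by 53 of 394. For Zkscan the count was 1 of 11 and for Zscan 0 of 19. Genes with no row in the table are not analysed here.

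Of the members, 83.9% were higher in the knockout, against 31.1% of the other 3195 genes of the table. The median log2 fold change by the authors' deposited table was 0.72 for the members and -0.90 for the other genes. The tilt lay in the number of members on each side and not in the median size of the rises. The higher members had a median fold of 1.76 by the authors' deposited table, and all higher genes of the table had a median of 1.75. The largest rise was 4.63-fold in the members and 23.08-fold in the table. The median fall by the authors' deposited table was 1.91-fold in the lower members and 2.33-fold in all lower genes. A fold of 2 or more was listed by the authors' deposited table for 8 of the 52 higher members and 3 of the 10 lower ones. Over all genes of the table, it was listed for 304 of 1047 higher and 1446 of 2210 lower genes, larger shares than in the members. When the 6 libraries were tested with limma and Benjamini-Hochberg adjustment over the whole table, all 62 members passed an adjusted p of 0.05, the largest being 0.024. The same test called 32.1% of the table higher and 67.5% lower, so a pass was the usual outcome in this table and nothing is read from the members' passing. All 3 knockout values lay above the 3 wild-type values in 51 members and below them in 9, where the table as a whole had 31.7% above and 65.8% below. Zfp711 and Zfp758 were the 2 members whose groups overlapped.

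**Figure D1:**
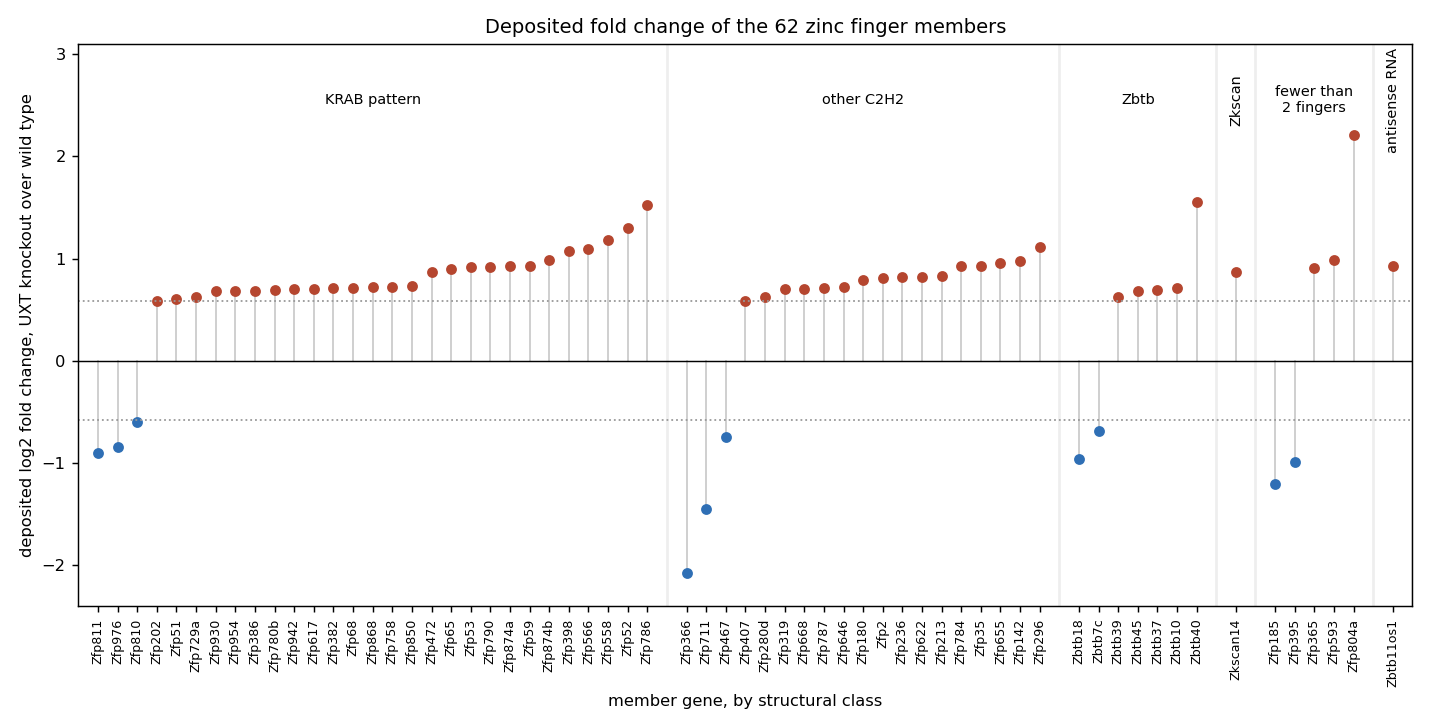
Log2 fold change by the authors' deposited table (vertical axis, knockout over wild type) of each of the 62 members, ordered within structural class along the horizontal axis, with higher members in red and lower members in blue. Dotted lines mark the fold of 1.5 that the table required, and 52 points lie above the upper line and 10 below the lower line.

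The KRAB zinc finger genes were the largest class, with 29 members once Zkscan14, which also holds the pattern, was placed with the SCAN names, of which 26 were higher and 3 lower. Their rises were modest, with a median fold of 1.65 by the authors' deposited table. The largest belonged to Zfp786, a KRAB protein with 11 fingers (chr6:47819266-47830867, minus strand). Its log2 values were 6.57, 6.50 and 6.55 in the wild-type libraries and 7.10, 7.19 and 7.06 in the knockout libraries. The groups stood well apart, with a range of 0.131 within the knockout libraries and a gap of 0.485 between the groups. The fold by the authors' deposited table was 2.88, and the difference of the group means was 0.57 ± 0.084 (SE, limma adjusted p = 0.000296).

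Zfp52 followed at 2.45-fold by the authors' deposited table (chr17:21535539-21562601, plus strand). Wild-type log2 values of Zfp52 were 10.04, 9.94 and 9.54, and knockout values were 10.89, 10.32 and 10.82. It was the most variable of the large rises, with wild-type library 3 and knockout library 2 lowest in their groups, but the groups did not overlap (difference 0.83 ± 0.172 SE, limma adjusted p = 0.00158). Zfp558 had wild-type values of 6.54, 6.43 and 6.32 and knockout values of 6.65, 6.99 and 6.95, with a fold of 2.27 by the authors' deposited table. Its first knockout library lay only just above the highest wild-type library. Zfp566 at 2.14-fold and Zfp398 at 2.11-fold were the other KRAB genes past a fold of 2 by the authors' deposited table. Zfp398, known as ZER6 in human, binds the estrogen receptor.

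At the other end of the KRAB class, Zfp202, a repressor of genes of lipid transport, had a fold of 1.503 by the authors' deposited table, just inside the limit of 1.5. Its values were 7.43, 7.47 and 7.53 in wild type and 7.72, 7.64 and 7.87 in the knockout, which left a gap of 0.104 between the groups. The limma adjusted p of Zfp202 was 0.024, and it rose to 0.076 without the first wild-type library, 0.0514 without wild-type library 2 and 0.0716 without knockout library 3. Zfp758 was listed at 1.65-fold by the authors' deposited table, with wild-type values of 7.68, 7.47 and 7.37 and knockout values of 7.94, 7.65 and 7.97. The second knockout library lay below the first wild-type library, and the limma adjusted p of 0.0209 rose to between 0.0569 and 0.0802 when wild-type library 2 or 3, or knockout library 1 or 3, was left out.

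The 3 lower KRAB genes were Zfp811, Zfp976 and Zfp810, at folds of -1.87, -1.79 and -1.52 by the authors' deposited table, where a minus sign marks a fall. Zfp811 had wild-type values of 6.43, 6.38 and 6.20 and knockout values of 6.11, 6.03 and 6.03, a small but complete separation. Zfp976 had wild-type values of 6.57, 6.47 and 6.54 against knockout values of 6.30, 6.20 and 6.26. These falls depended on how the libraries were scaled. The difference of -0.28 for Zfp811 became 0.17 under quantile normalization and 0.02 under median centring, and that of -0.28 for Zfp976 became 0.19 and 0.02, none of which passed limma's adjusted p of 0.05.

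Several KRAB members share much of their sequence, and reads shared by near-identical copies could be split between them by the authors' counting. The proteins of Zfp874a and Zfp874b were identical at 93.1% of the positions of the shorter one, those of Zfp59 and Zfp780b at 81.0%, and those of Zfp65 and Zfp729a at 79.2%. Likeness of the transcripts was not measured, so whether the separate values of these 6 genes are uncertain for that reason was not tested.

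Among the 7 Zbtb genes with a BTB name and fingers, 5 were higher and 2 lower. Zbtb40 (chr4:136979732-137048801, minus strand), a gene named in studies of bone density, showed the largest difference between library means of all 62 members. Its log2 values were 9.42, 9.42 and 9.49 in wild type and 10.35, 10.21 and 10.61 in the knockout, a fold of 2.94 by the authors' deposited table. The lowest knockout library stood 0.719 above the highest wild-type library, and the difference was 0.94 ± 0.107 (SE, limma adjusted p = 7.6e-05). Zbtb10, Zbtb37, Zbtb45 and Zbtb39 followed at 1.63, 1.61, 1.61 and 1.54-fold by the authors' deposited table. Zbtb37 was no longer called by limma without wild-type library 1, wild-type library 3 or knockout library 3, and Zbtb39 without wild-type library 1.

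Zbtb18, also called RP58, is a repressor known for its role in neuronal and muscle differentiation, and it was the most reduced Zbtb gene (chr1:177442351-177450764, plus strand). Its values were 10.99, 10.97 and 10.90 in wild type and 10.27, 10.32 and 10.44 in the knockout. The fold was -1.95 by the authors' deposited table and the groups were far apart (difference -0.61 ± 0.078 SE, limma adjusted p = 0.000149). Zbtb18 stayed lower and passed the test under both other scalings, at -0.47 and -0.31. Zbtb7c, a BTB repressor of the POK family, had wild-type values of 10.29, 10.40 and 10.29 and knockout values of 9.65, 10.04 and 9.97. Its fold was -1.61 by the authors' deposited table, and its difference of -0.44 shrank to -0.14 under median centring, with a limma adjusted p of 0.219.

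Many members overlap other annotated genes. The use of strand in counting is not given in the sources used here, although the library kit keeps strand. Zbtb45 lies wholly inside the span of Trim28 on the opposite strand, an overlap of 6137 bases, and Trim28 was itself higher at 1.57-fold by the authors' deposited table. Zbtb37 overlaps 428 bases of Gas5, a host gene of small nucleolar RNAs, at 3.07-fold by the authors' deposited table. Zbtb11os1, at 1.90-fold by the authors' deposited table, overlaps 735 bases of Zbtb11. Its values were 7.64, 7.73 and 7.81 in wild type and 8.05, 8.26 and 8.24 in the knockout. Zbtb18, Zbtb39 and Zbtb40 overlap genes on the opposite strand by 920, 74 and 129 bases, and Zbtb7c by up to 6915. On the same strand, which strand use cannot separate, Zfp729a overlaps Gm49345 by 25007 bases. Likewise, Zfp566 overlaps Gm26920 by 13074 bases and Zfp617 overlaps Zfp882 by 7720. Whether reads of the partner genes entered the values of any of these symbols was not tested.

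The one SCAN-named member was Zkscan14, at 1.83-fold by the authors' deposited table. Its values were tight, at 8.40, 8.38 and 8.34 in wild type and 8.82, 8.77 and 8.93 in the knockout.

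The remaining C2H2 genes, which gave no KRAB pattern and carry no BTB or SCAN name, numbered 19, with 16 higher and 3 lower. Zfp296, a factor of pluripotent cells, was highest among them at 2.17-fold by the authors' deposited table, with wild-type values of 5.77, 5.73 and 5.98 and knockout values of 6.22, 6.19 and 6.11. The groups were separate, but the third wild-type library came close to the third knockout library. The members with the highest mean log2 values were Zfp622 (11.34), Zfp646 (11.24) and Zfp655 (11.22), values that the sources do not describe as corrected for gene length. Zfp622 had 11.11, 11.05 and 11.08 in wild type and 11.53, 11.56 and 11.72 in the knockout, at 1.77-fold by the authors' deposited table. Zfp655, whose human counterpart binds the signalling protein Vav1, had 10.96, 10.88 and 10.92 against 11.49, 11.44 and 11.64, at 1.94-fold by the authors' deposited table. Zfp646 had 10.98, 10.98 and 11.07 against 11.36, 11.43 and 11.62, at 1.65-fold by the authors' deposited table, and it overlaps 156 bases of Prss53, a lower gene on the opposite strand. In all 3 genes the knockout libraries lay above the highest wild-type library, by 0.291 at the least (Zfp646). Zfp407 had the smallest fold of all members, 1.502 by the authors' deposited table, with values of 9.62, 9.67 and 9.66 in wild type and 9.88, 9.91 and 10.20 in the knockout.

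Zfp366, Zfp711 and Zfp467 were the lower genes of this class, and each turned positive under 1 of the other scalings. Zfp366, known as DC-SCRIPT, is a nuclear receptor cofactor of dendritic cells (chr13:99184823-99250656, plus strand). It had the largest fall of any member, -4.22-fold by the authors' deposited table, and the lowest mean value. Its library values, however, were 3.58, 3.71 and 3.67 in wild type and 3.44, 3.45 and 3.44 in the knockout, a difference of -0.21 that became 0.09 under median centring. The 3 knockout values spanned a range of 0.013. Zfp711, an X-linked cofactor of the histone demethylase Phf8, was listed at -2.74-fold by the authors' deposited table. Its wild-type values were 4.52, 4.82 and 4.97 and its knockout values 4.48, 4.45 and 4.53, so the first wild-type library lay within the knockout range. The limma adjusted p of 0.0227 for Zfp711 rose to between 0.0557 and 0.0738 when wild-type library 2 or 3, or knockout library 1 or 2, was left out, and the difference became 0.01 under median centring.

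Of the 5 proteins with fewer than 2 fingers, 3 were higher and 2 lower. Zfp804a, known from human genetics of schizophrenia, had the largest rise of all members, 4.63-fold by the authors' deposited table (chr2:82053222-82259879, plus strand). Its values were 5.01, 5.07 and 5.05 in wild type and 5.57, 5.26 and 5.81 in the knockout, all 3 above wild type but spread over a range of 0.55. Zfp593, the ribosome biogenesis factor, and Zfp365, which binds the scaffold protein Disc1, were listed at 1.98-fold and 1.87-fold by the authors' deposited table. Zfp185 was listed at -2.31-fold by the authors' deposited table, with wild-type values of 4.002, 4.071 and 4.009 and knockout values of 3.86, 3.82 and 3.90. That difference of -0.17 turned to 0.03 under quantile normalization and to 0.13 under median centring. Zfp395, a DNA-binding protein named for the huntingtin gene promoter, had 10.45, 10.62 and 10.51 in wild type and 9.97, 9.99 and 9.78 in the knockout, at -1.99-fold by the authors' deposited table. Zfp395 stayed lower and passed the test under both other scalings, at -0.45 and -0.32.

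**Figure D2:**
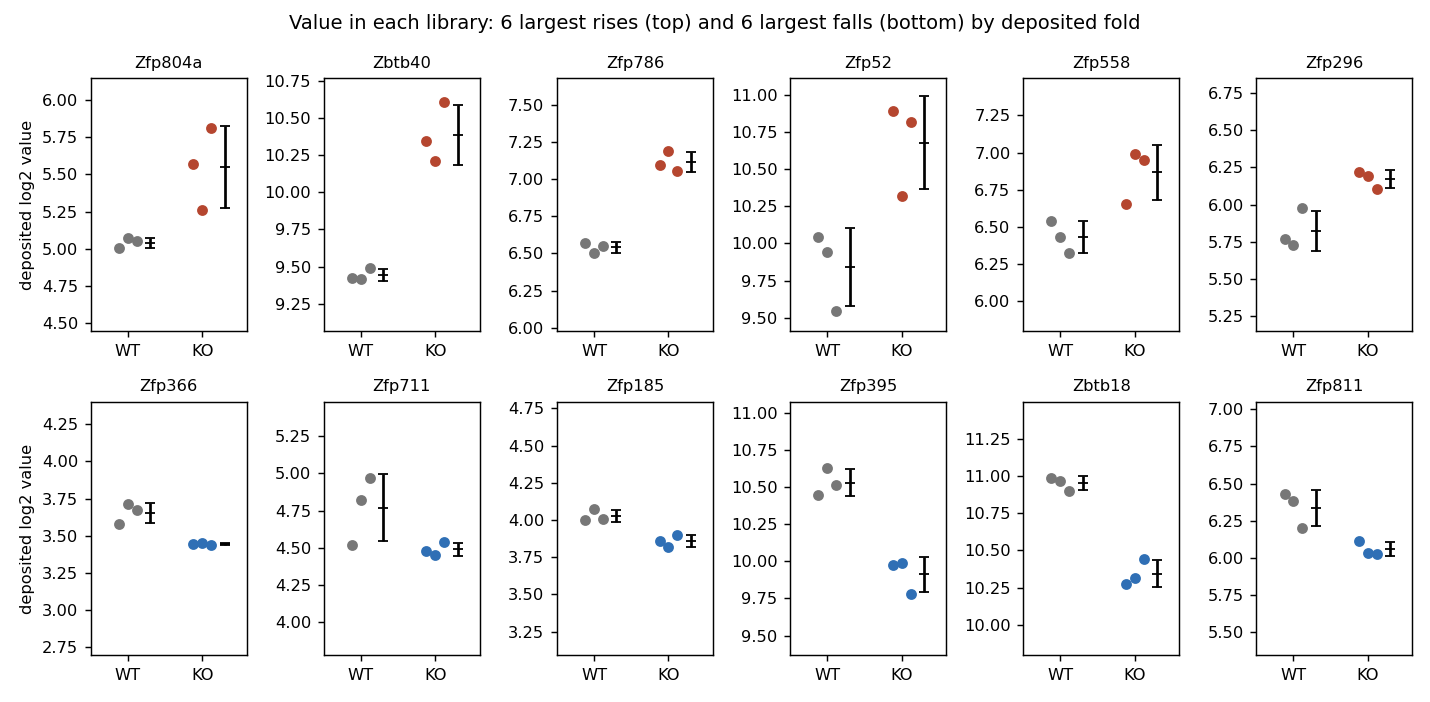
Deposited log2 value (vertical axes, each spanning the same range around the gene's mean) in the 3 wild-type (WT, grey) and 3 knockout (KO, red or blue) libraries of 12 members, those of the 6 largest rises and falls by the authors' deposited table. Bars give the mean ± SD (n = 3), and Zfp711 is the gene among the 12 whose groups overlap, with a lowest wild-type value of 4.52 and a highest knockout value of 4.53.

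The library values were compressed relative to the deposited folds, and more so at low level. Over the 12 members with a mean log2 value under 7, the difference of group means was 0.1 to 0.403 of the log2 fold change by the authors' deposited table, with a median of 0.32. Over the 13 members with a mean of 10 or more, the same ratio ran from 0.612 to 0.644. The order of members by fold therefore differs between the 2 measures. Zfp804a led by the fold of 4.63 by the authors' deposited table, and Zbtb40 and Zfp52 led by library difference (0.94 and 0.83). The lower members sat at lower level, with a median mean value of 7.25 against 8.79 for the higher ones.

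**Figure D3:**
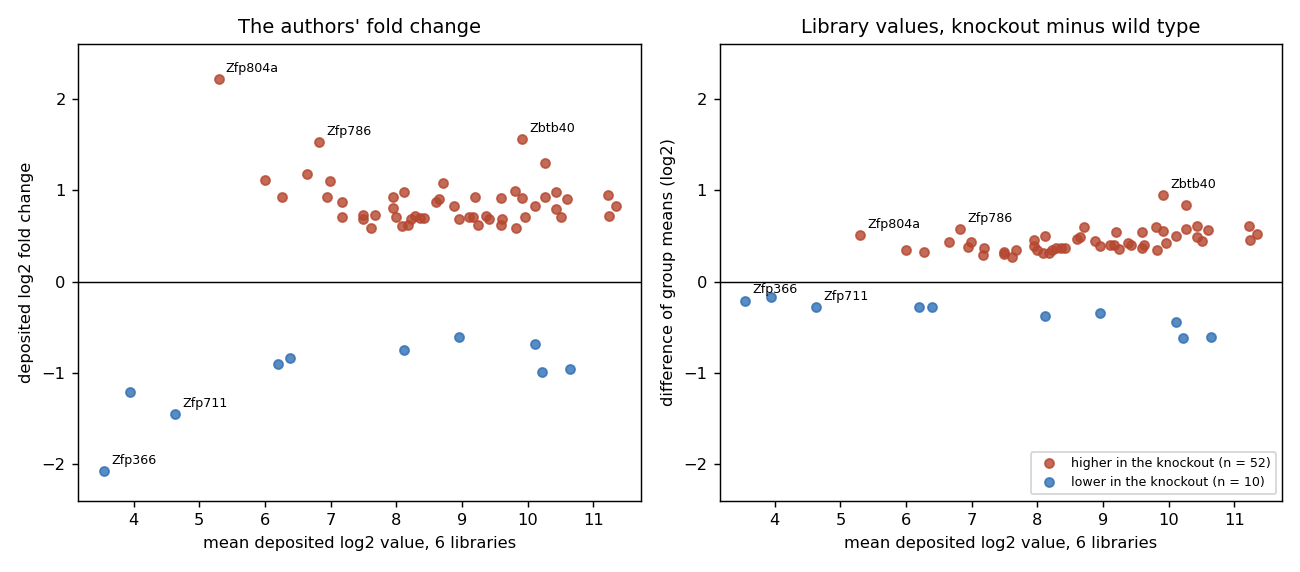
Log2 fold change by the authors' deposited table (left) and difference of the library means (right, log2) of the 62 members against their mean deposited log2 value (horizontal axes), with higher members in red and lower members in blue. Points at low level, such as Zfp366 (log2 fold -2.08, difference -0.21), move toward 0 from left to right, and points at high level move less.

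The falls depended on the scaling of the libraries. The median difference over all genes of the table was -0.40 as deposited, and quantile normalization moved it by 0.33 and median centring by 0.30. Both were computed within a table of which 67.5% was called lower. Both moved the knockout upward, and the 52 higher members moved further up with it (smallest difference 0.27 as deposited, 0.57 and 0.56 after scaling), so their staying higher is no test of them. The same shift brings small falls toward 0 or past it, so a fall that shrinks or turns is no test of that fall either. Of the 10 lower members, 3 still passed as lower under quantile normalization (Zfp395, Zbtb18 and Zbtb7c) and 2 under median centring (Zfp395 and Zbtb18). The sign turned positive for 4 lower members under quantile normalization (Zfp185, Zfp467, Zfp811 and Zfp976) and for 5 under median centring (Zfp185, Zfp366, Zfp711, Zfp811 and Zfp976). The share of higher genes among those called moved from 32.2% to 47.9% and 52.1% in the table, and from 83.9% to 94.5% and 96.3% in the members.

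**Figure D4:**
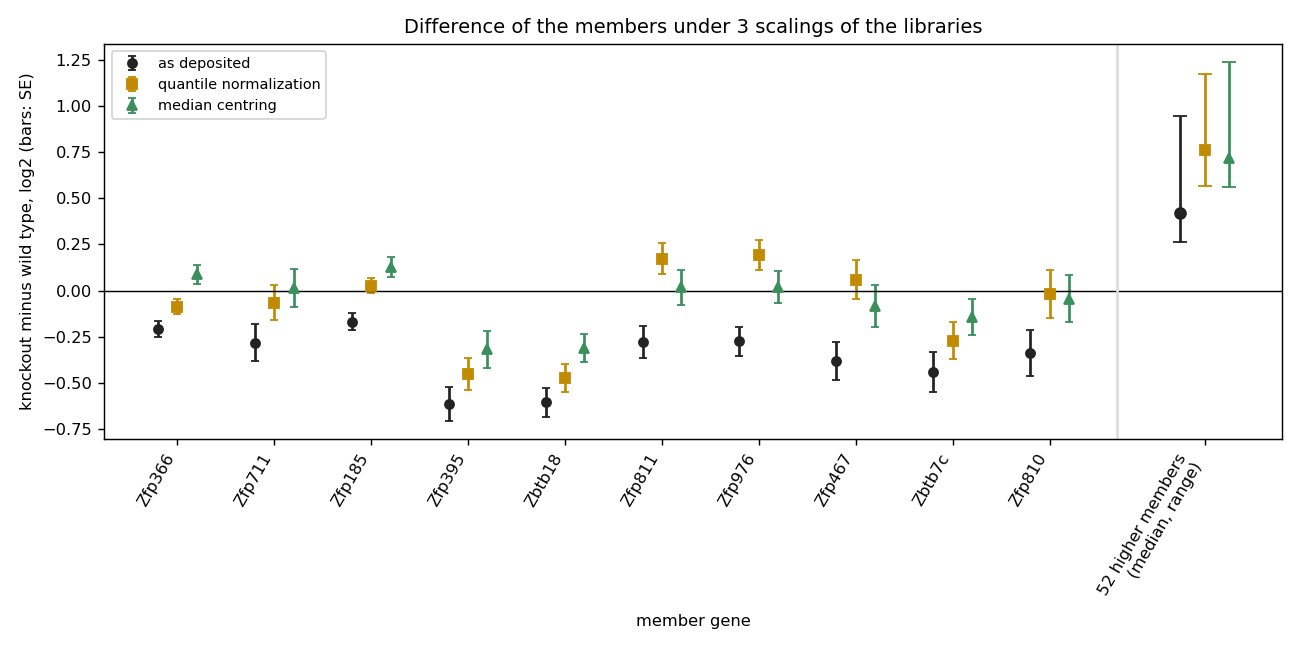
Difference of knockout and wild-type means (vertical axis, log2) of the 10 lower members under 3 scalings, with bars for the standard error, and at the right the median and range over the 52 higher members. Both scalings move the knockout values upward, and only Zfp395, Zbtb18 and Zbtb7c among the lower ones stay below 0 by more than a standard error under every scaling.

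The third knockout library carried the highest of the 3 knockout values in 37 of the 52 higher members (71.2%), and in 58.0% of all higher genes of the table. Relative to the wild-type mean, the median rise of the higher members was 0.41 in the first knockout library, 0.39 in the second and 0.50 in the third. Without the third knockout library, 49 of the 52 remained called higher by limma, and the smallest of the 52 differences was 0.20. The lower members fell by a median of 0.26, 0.31 and 0.33 in the 3 knockout libraries.

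Members that neighbour each other on a chromosome mostly shared a direction. With members joined when less than 250 kb apart, 21 members fell into 8 groups, of which 7 held higher members only and 1 was mixed. On chromosome 17, Zfp51, Zfp53 and Zfp52 lie side by side in 112228 bases, are the only protein-coding genes of that span, and were higher at 1.52, 1.89 and 2.45-fold by the authors' deposited table. Zfp786 and Zfp398, the 2 protein-coding genes of a span of 54272 bases on chromosome 6, were both higher by more than 2-fold by the authors' deposited table. On chromosome 13, Zfp874a, Zfp874b, Zfp729a and Zfp65 were the 4 members among 9 annotated genes with these symbols, all higher at between 1.54 and 1.98-fold by the authors' deposited table. Chromosome 7 held 15 members, with 14 higher and 1 lower. Zfp668 and Zfp646, both higher, overlap each other on opposite strands by 608 bases. With 52 of 62 members higher, groups of a single direction are common by count alone, and no test was made of the grouping. Several neighbours also encode proteins alike in sequence, such as Zfp874a with Zfp874b (93.1%), Zfp59 with Zfp780b (81.0%) and Zfp65 with Zfp729a (79.2%). Zfp51 shared 74.1% with Zfp53 and 65.3% with Zfp52. Whether reads shared between copies gave neighbours a common direction was not tested.

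The mixed group was that of Zfp811 and Zfp472 on chromosome 17, a pair of KRAB genes within 183558 bases. Zfp472 had wild-type values of 7.115, 6.878 and 6.998 and knockout values of 7.22, 7.38 and 7.48, at 1.82-fold by the authors' deposited table. Zfp811 was lower as described above, with a sign that turned under both other scalings.

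Promoters were read for the members that move together. RefSeq promoter sequences on GRCm38.p6, each from 250 bases before to 50 bases after a transcript start, were matched by symbol for 48 of the 62 members and gave 55 promoters. Those of Zfp786 and Zfp398 are shown as the neighbouring pair with the largest rises, those of Zfp811 and Zfp472 as the neighbouring pair of opposite direction, and those of Zfp53 and Zfp655 as examples that hold the letters CCGGAAG. Capitals mark CCGGAAG as well as GGGCGG as well as CCAAT, on either strand.
Zfp786 (chr6:47830456-47830755, minus strand): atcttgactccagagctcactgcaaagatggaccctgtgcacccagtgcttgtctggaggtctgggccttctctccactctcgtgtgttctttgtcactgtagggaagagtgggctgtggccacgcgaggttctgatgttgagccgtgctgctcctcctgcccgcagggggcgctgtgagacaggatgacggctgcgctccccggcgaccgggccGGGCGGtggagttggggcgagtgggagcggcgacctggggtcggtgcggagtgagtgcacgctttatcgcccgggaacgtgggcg
Zfp398 (chr6:47835411-47835710, plus strand): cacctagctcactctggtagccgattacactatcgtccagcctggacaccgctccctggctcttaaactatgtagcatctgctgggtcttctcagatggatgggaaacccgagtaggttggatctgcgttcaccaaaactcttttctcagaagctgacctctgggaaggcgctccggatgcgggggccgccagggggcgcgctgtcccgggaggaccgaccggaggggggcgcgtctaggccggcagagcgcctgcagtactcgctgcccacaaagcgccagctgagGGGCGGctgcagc
Zfp811 (chr17:32809882-32810181, minus strand): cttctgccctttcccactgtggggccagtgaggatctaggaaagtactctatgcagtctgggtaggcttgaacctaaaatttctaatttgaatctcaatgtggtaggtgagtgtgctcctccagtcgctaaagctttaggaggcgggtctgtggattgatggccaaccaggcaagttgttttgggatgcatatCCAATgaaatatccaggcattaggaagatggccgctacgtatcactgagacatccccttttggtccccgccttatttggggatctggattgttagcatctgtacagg
Zfp472 (chr17:32965581-32965880, plus strand): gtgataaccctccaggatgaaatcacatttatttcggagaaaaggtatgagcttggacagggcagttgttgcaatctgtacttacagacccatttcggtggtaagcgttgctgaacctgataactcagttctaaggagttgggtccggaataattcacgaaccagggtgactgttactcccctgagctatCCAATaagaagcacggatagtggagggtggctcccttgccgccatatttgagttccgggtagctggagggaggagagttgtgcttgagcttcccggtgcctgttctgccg
Zfp53 (chr17:21488738-21489037, plus strand): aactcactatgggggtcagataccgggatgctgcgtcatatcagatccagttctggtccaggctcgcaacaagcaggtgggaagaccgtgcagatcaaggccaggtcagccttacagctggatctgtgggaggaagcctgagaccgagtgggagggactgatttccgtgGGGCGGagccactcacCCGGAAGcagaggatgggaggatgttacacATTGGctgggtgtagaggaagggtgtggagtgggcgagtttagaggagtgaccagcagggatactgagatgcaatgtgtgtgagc
Zfp655 (chr5:145231492-145231791, plus strand): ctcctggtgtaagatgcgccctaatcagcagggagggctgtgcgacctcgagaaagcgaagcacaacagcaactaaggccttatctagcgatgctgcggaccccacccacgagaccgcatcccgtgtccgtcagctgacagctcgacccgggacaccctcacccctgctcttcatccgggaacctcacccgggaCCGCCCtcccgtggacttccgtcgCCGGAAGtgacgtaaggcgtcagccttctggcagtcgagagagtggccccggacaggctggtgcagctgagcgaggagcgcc
The promoters of Zfp786 and Zfp398 each hold GGGCGG, and those of Zfp811 and Zfp472 each hold CCAAT and no other marked match, although the genes were listed in opposite directions.

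In all, 10 motifs were searched on both strands, chosen after the table had been read. CCGGAAG, the core bound by ETS factors, occurred in 15 of the 45 promoters of higher members (33.3%), which belong to 14 of 42 genes. It occurred in 18.7% of the promoters of all higher genes of the table, in 5.69% of those of all lower genes and in 8.86% of all 32851 promoters. The 14 genes were Zbtb37, Zbtb45, Zfp142, Zfp180, Zfp202, Zfp53, Zfp558, Zfp59, Zfp617, Zfp65, Zfp655, Zfp668, Zfp780b and Zfp787, of which 7 were of the KRAB class. GGGCGG, the core bound by Sp factors, occurred in 64.4% of the promoters of higher members, 62.9% of those of all higher genes and 35.7% of all promoters. For CCAAT the shares were 31.1%, 33.2% and 37.4%. The promoters of higher members held a median of 19 CpG dinucleotides, close to the 20 of all higher genes and above the 7 of all promoters. CCGGAAG itself holds a CpG, and its share was not compared with promoters of like composition. A match is a description and not a binding site.

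The shares of the other motifs follow in a fixed order. In the promoters of higher members, in those of all higher genes and in all promoters, the shares of TATAAA were 2.22%, 8.34% and 13.6%. Those of CACGTG were 13.3%, 12.8% and 7.15%. Those of TCGCGA were 4.44%, 6.18% and 2.5%, and those of CGCATGCG were 2.22%, 3.09% and 1.87%. Those of GAANNTTC were 6.67%, 6.69% and 7.86%. Those of TGACTCA were 2.22%, 3.81% and 5.2%, and those of AGAACA were 11.1%, 12.7% and 19.0%. The 10 promoters of lower members come from 6 genes, 5 of them from Zbtb18 alone, too few to set against the rest. CCAAT occurred in 5 of the 10, TATAAA and GGGCGG in 4 each, AGAACA in 1 and the other motifs, CCGGAAG among them, in 0.

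The partners of these proteins were examined in lists. Of 27 genes for the KRAB co-repressor and heterochromatin, 2 were in the table. Trim28, the co-repressor of KRAB proteins, was higher, with values of 13.42, 13.52 and 13.51 in wild type and 13.92, 13.97 and 13.84 in the knockout, at 1.57-fold by the authors' deposited table (limma adjusted p = 0.000748). As noted for Zbtb45, the 2 genes overlap. Chd3, a remodeller of the NuRD complex, was lower at -1.54-fold by the authors' deposited table. Of 12 co-repressor and partner genes of BTB proteins, 0 were in the table.

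C2H2 factors with other names moved both ways. Of 109 listed, 18 were in the table, with 8 called higher and 10 lower by limma, a share of 44.4% higher, beside 32.1% of all genes of the table and 83.9% of the members. Egr4 and Egr2, early growth response factors, were listed at 3.55 and 2.87-fold by the authors' deposited table. Mecom and Wt1, the latter a defining factor of Sertoli cells, were listed at -7.46 and -4.47-fold by the authors' deposited table. Gata1, which has zinc fingers of another type, was the 1 of 7 listed GATA genes in the table, at -6.04-fold by the authors' deposited table. Of the genes whose symbols begin with Zc3h, Zcchc or Zmym, 5 were in the table, 3 higher and 2 lower. They were led by Zcchc14 at 1.93-fold and Zcchc18 at -1.82-fold by the authors' deposited table. Zc3hc1, among the higher ones, is named for a C3HC finger and not for a CCCH finger. The Zfp36 genes, which encode RNA-binding CCCH proteins that speed the decay of AU-rich transcripts, had no row among the genes analysed here. Of 16 listed AU-rich transcripts they bind, 10 were in the table, 1 higher and 9 lower, where the whole table had 2210 of 3257 genes lower. Myc was the higher one at 1.97-fold, and Ccl3 (-12.8-fold) and Cxcl2 (-4.85-fold) fell the most by the authors' deposited table. Whether the Zfp36 proteins had a part in these changes was not tested. A list of 16 genes held the CCR4-NOT deadenylase, which the Zfp36 proteins recruit, and the Tob and Btg proteins that bind it. The 2 present were of the binding proteins, Tob2 at 1.53-fold and Tob1 at -1.54-fold by the authors' deposited table. No listed gene with a Cnot name was in the table.

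Markers of the cells that the cultures could hold were also in the table, which was selected on this contrast. Of all 3257 genes of the table, 2210 were lower and 1047 higher, so a lower marker was the more usual outcome. Each sum below covers only the markers in the table, so separated sums follow from that selection and are not levels of a cell type. A single gene can carry a sum, as Clu did for Sertoli cells (mean 16.85 in wild type and 15.68 in the knockout). Of 20 Sertoli cell markers, 13 were in the table and all were lower, with a summed level (log2) of 17.02 to 17.46 in wild type and 15.74 to 16.17 in the knockout. The same held for 15 of 16 macrophage markers (14.79 to 15.15 against 13.30 to 13.53), 13 of 14 endothelial markers (13.95 to 14.05 against 13.13 to 13.34), 7 of 8 myoid markers (19.00 to 19.32 against 18.52 to 18.72) and 4 of 9 fibroblast markers (20.44 to 20.60 against 19.38 to 20.12). Of 8 Leydig cell markers, 3 were in the table and all were higher (15.15 to 15.35 against 15.71 to 16.04). Of 17 germ cell markers, 1 was higher and 3 lower. Their summed level (11.62 to 12.09 against 12.15 to 12.40) followed the higher one, Uchl1, which had a mean of 11.80 in wild type and 12.25 in the knockout, while Kit went from 7.83 to 6.03 and Sycp3 (3.88 to 3.69) and Tex11 (4.53 to 4.27) lay lower still. None of the markers in the table was listed at 0. Their part in the members' changes, among them the fall of the dendritic cell factor Zfp366 beside the macrophage markers, was not tested.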

How the data were processed

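Messenger RNA of 6 libraries was sequenced, 3 wild type and 3 UXT knockout, grouped by sample title. FastQC, STAR, DESeq2 and mm10 are named per the submitters' processing notes, without versions; the read counter, gene annotation and use of strand are not given in the sources used here. What the authors deposited is 1 table of selected genes. Per the file headers it holds a signed fold score (the ratio of knockout to wild type, or minus the inverse ratio for lower genes), its log2 fold change, p-values and adjusted p-values, and a value per library. The deposited library values are on a log2 scale, normalized by the authors in a way not given in the sources used here. No counts were used, so depth is unknown and no counting interval was computed.

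Of 3261 rows, 4 were left out because Efna1 and Hmga1 each stood on more than 1 row. The log2 values of the remaining 3257 genes went into limma 3.58.1 (R 4.3.3) with its mean-variance trend and no covariate, with Benjamini-Hochberg adjustment over all of them. The script was tested on simulated data. The design had provided for a pseudocount on linear values, which log2 values do not need. The members and lists were chosen with earlier results of these data known. Named members were the 6 largest rises and falls by deposited fold, the 2 largest of each structural class in each direction, the 3 of highest mean, the 2 of smallest fold and those with overlapping groups; from each list, at most 2 rises and 2 falls were named. Zfp398, Zfp472, Zfp566, Zfp365, Zfp593, the genes with overlapping spans or near-identical proteins, and the members of neighbour groups and with CCGGAAG were named in addition, after their values were seen.

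Fingers were counted as C-x(2,4)-C-x(12)-H-x(3,5)-H in the longest GENCODE M21 coding sequence, in place of RefSeq proteins. The KRAB pattern first chosen (first 150 residues) matched 12 members and missed clear KRAB proteins, so a second pattern (first 400 residues), chosen after those proteins were seen, set the class; it matched all 12 and missed 14 annotated genes outside the table that the first matched. Protein identity was taken from global alignments with Biopython 1.88. Promoters and motifs were read from the RefSeq table in Python 3.11.15.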

Additional observations from a re-analysis of the deposited data

How the results depend on the processing

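Counts of called genes were recomputed with quantile normalization, median centring, no mean-variance trend, a replicate block, a filter leaving out genes under the 0.25 quantile of mean value, an adjusted p under 0.01, and each library left out. The number of lower members was 10 as deposited, 3 under quantile normalization, 2 under median centring and 5 with the filter, which tested 53 of the 62 members. The number of lower genes in the table went from 2200 to 1143 under quantile normalization and 1024 under median centring. Leaving out the 6 symbols of fewer than 2 fingers, chosen after seeing the data, gave 48 higher and 8 lower members. All other counts stayed within 1.5 times their value. Leaving out single libraries gave 49 to 52 higher and 9 lower members, and 1014 to 1034 higher and 2085 to 2158 lower genes in the table. The members that lost their call in any of these fits were Zbtb37, Zbtb39, Zfp51, Zfp202, Zfp711, Zfp758 and Zfp810. Differences reversed to 0.0258 (quantile normalization) and 0.1267 (median centring) for Zfp185, 0.1716 and 0.0166 for Zfp811, and 0.192 and 0.0204 for Zfp976. Under median centring alone they reversed to 0.0874 for Zfp366 and 0.0138 for Zfp711. Both scalings raise the knockout against wild type, and both were computed within a table of which 67.5% was called lower. They therefore decide neither the falls nor the rises, and no other cause was tested. Wild-type and knockout libraries share replicate numbers, and the deviations of same-numbered libraries correlated at 0.177, -0.0731 and -0.00388. The labels do not say whether same-numbered libraries were paired, and these correlations cannot exclude it. Of the 3 knockout libraries, library 1 correlated best with its own number and the other two did not. With a replicate block, limma called 52 members higher and 10 lower, and 1045 genes of the table higher and 2207 lower. The pseudocount alternatives were not run, as the values are log2. The selection of the table on this contrast and the unknown depth limit all of these values, and nothing is known here of zinc finger genes outside the table.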
